A study of Mus musculus with 23 samples.

Results

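Losing the last copy of p53 was measured here in mouse embryos that had not been heated, by setting 4 pools of p53 -/- embryos against 4 pools of p53 +/- embryos. These are the 8 arrays titled as controls of these genotypes, out of 23 arrays in the series. The embryos were whole, of day 8.5, and came from crosses of p53 heterozygous mice. After 10 minutes at 38 °C in the control bath they were genotyped, and RNA was taken from 3 to 7 embryos of like genotype together as a pool. Wildtype (p53 +/+) control pools (n = 4), heterozygous pools heated at 43 °C for 10 minutes (n = 4) and null pools heated in the same way (n = 3 here) are given beside them where they help to place a value. The labels name neither the strain nor the construction of the null allele, and no probe is annotated to Trp53 itself here, so the genotype could not be checked on the deleted gene. A probe was tested when it had a value in at least 3 pools a side, which held for 23967 of the 36227 probes. Of these, 15548 carry a single gene symbol and stand for 13500 genes.

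p53 is a transcription factor that is held low by Mdm2, a ubiquitin ligase that is itself a p53 target. When p53 is released it binds a pair of short decamers near its target genes and raises genes of cell cycle arrest (Cdkn1a, Ccng1), cell death (Bbc3, Pmaip1, Bax), DNA repair (Xpc, Ddb2, Ercc5) and feedback (Mdm2, Ccng1). In the mouse embryo the dose of p53 matters to neural tube closure and to the removal of damaged cells, and heterozygous cells keep a single working copy.

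The stretches before the start of Ccng1 and Cdkn1a, target genes often used to read p53 activity, are shown as background. Neither gene passed in the control comparison below. Capitals mark matches to the p53 decamer, a palindromic motif searched by name on both strands. The windows are the 250 bases before the RefSeq start on build GRCm38.p6, at chr11:40755287-40755536 on the minus strand for Ccng1 and at chr17:29090729-29090978 on the plus strand for Cdkn1a.
Ccng1: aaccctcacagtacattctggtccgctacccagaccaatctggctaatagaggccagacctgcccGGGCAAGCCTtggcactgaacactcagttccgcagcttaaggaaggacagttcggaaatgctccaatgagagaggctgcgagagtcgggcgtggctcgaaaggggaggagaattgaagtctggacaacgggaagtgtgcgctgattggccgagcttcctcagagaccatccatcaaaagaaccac
Cdkn1a: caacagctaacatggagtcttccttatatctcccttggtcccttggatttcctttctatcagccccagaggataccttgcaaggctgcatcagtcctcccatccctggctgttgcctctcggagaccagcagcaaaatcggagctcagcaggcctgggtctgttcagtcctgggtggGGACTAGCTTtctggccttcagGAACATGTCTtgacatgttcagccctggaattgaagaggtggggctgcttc
The Ccng1 window held 1 decamer, which begins 185 bases before the start. The Cdkn1a window held 2, beginning 73 and 51 bases before the start, a pair close enough together to make a full p53 site with a spacer of at most 13 bases. A further Cdkn1a window, at another start on the same strand, held none. Among the p53 target genes that were tested, 44 had RefSeq windows, and 12 of their 64 windows (18.8%) held a decamer, against 2341 of all 32851 windows (7.13%). A match is only a match of letters, and sites elsewhere in a gene, such as introns, are not covered by these windows.

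In the control bath, 10 of 23967 probes (0.0417%) passed an adjusted p of 0.05 in limma with Benjamini-Hochberg adjustment. Of these, 3 were higher in null pools and 7 were lower. The probes do not belong to a single pathway. Those that rose were 1 probe of Dennd5b, which encodes an activator of Rab GTPases, Nlrx1, a mitochondrial NOD-like receptor, and 1 probe of Lztfl1, a regulator of the ciliary Bardet-Biedl complex. Those that fell were Mettl7a2, a methyltransferase-like protein, Nosip, which binds nitric oxide synthase, Acaa2, a thiolase of mitochondrial fatty acid oxidation, Bloc1s3, a subunit of a complex that builds lysosome-related organelles, 1 probe of Mcc, and 2 probes that carry no single symbol. With each array centred on its median, 4 probes passed, 2 in each direction. With the values as deposited the split was 3 higher and 11 lower, and with the 12 control arrays alone it was 0 higher and 3 lower.

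The call rested on how the 8 pools were composed. Without heterozygous pool A no probe passed, without pool B 1 passed (the Dennd5b probe), without pool C 688 passed and without pool D 27 passed. Without null pool A 24 probes passed, without null pool C 4 passed, and without null pool B or null pool D none passed. At an unadjusted p under 0.05 there were 4175 probes in all, 2174 higher and 2001 lower, and this number was 2190 without heterozygous pool A, 3116 without null pool B and 3079 without null pool D. With only the 8 arrays fitted, the count at the adjusted threshold was 0, with 3466 probes at an unadjusted p under 0.05.

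**Figure D1:**
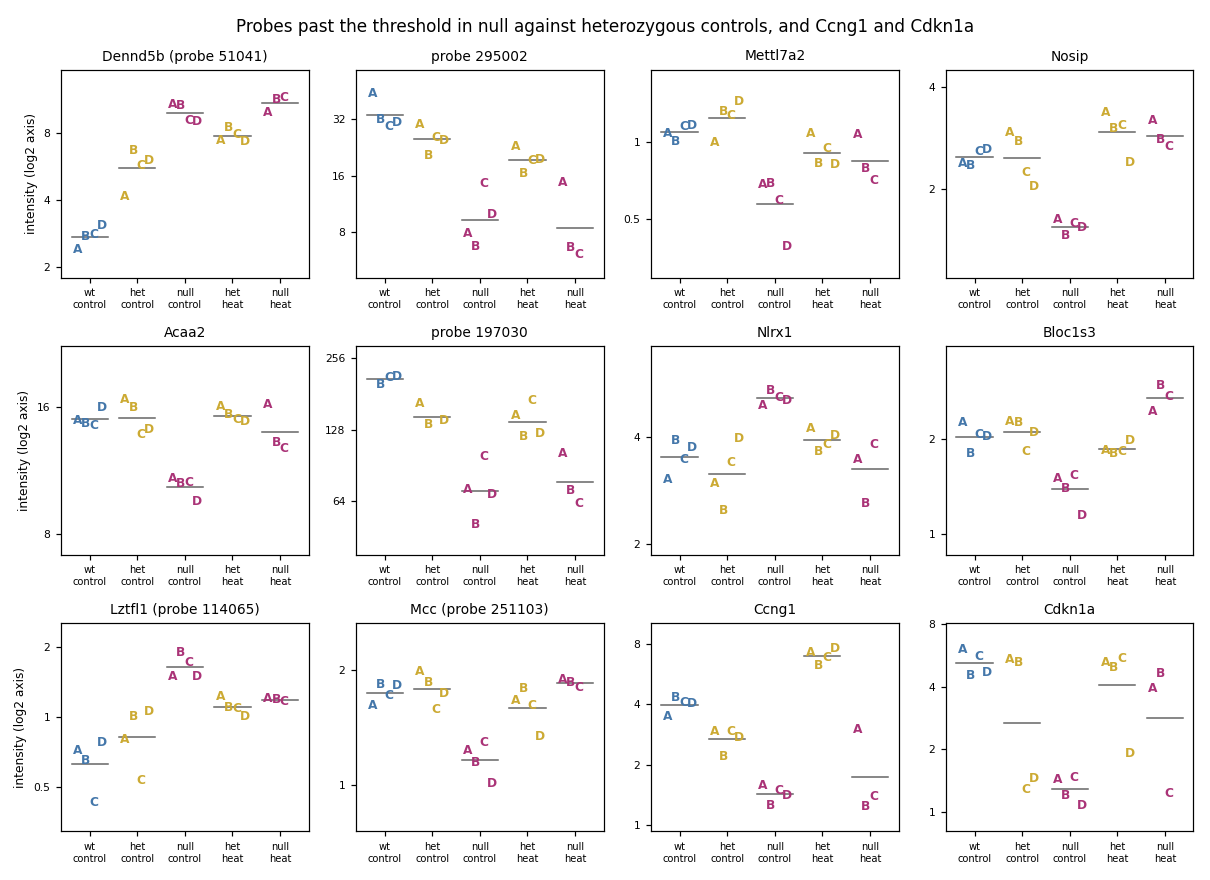
Intensity (log2 axis, normalised, arbitrary units) of the 10 probes that passed and of Ccng1 and Cdkn1a. Each letter is 1 pool, blue for wildtype, yellow for heterozygous and purple for null, and grey lines are geometric means. The null control pools lie apart from all heterozygous control pools in every panel but Cdkn1a.

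Dennd5b showed the most graded pattern. Its probe 51041 read 2.39, 2.74, 2.79 and 3.07 in the wildtype control pools, 4.13, 6.66, 5.69 and 5.97 in heterozygous pools A to D, and 10.7, 10.5, 9.07 and 8.93 in null pools A to D. The 3 genotypes did not overlap, with heterozygous pools between the others. The log2 fold change of null over heterozygous was 0.82 ± 0.13 (SE), with an adjusted p of 0.030 (limma). A further Dennd5b probe, 64096, which is the brighter of the pair on average, did not follow: it read 6.96 to 10.6 in heterozygous and 8.02 to 8.48 in null pools, with a log2 fold change of -0.12 ± 0.12 (limma adjusted p = 0.59). In the heated pools, which share no array with the controls, probe 51041 was at 7.26 to 8.44 in heterozygous and 9.85 to 11.5 in null pools (log2 fold change 0.49, limma adjusted p = 0.81). The direction was the same in both baths and the values did not overlap in either.

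A pair of probes without a single symbol had heterozygous means between those of wildtype and null. Probe 295002 read 29.4 to 44.0 in wildtype, 30.1, 20.5, 25.6 and 24.8 in heterozygous and 7.88, 6.74, 14.5 and 9.96 in null control pools, a log2 fold change of -1.42 ± 0.23 (limma adjusted p = 0.030). Every null value lay below every heterozygous value, while heterozygous pool A lay within the wildtype range. Probe 197030, whose annotation lists several genes, read 164, 134 and 140 in the 3 heterozygous pools with a value and 71.9, 51.0, 99.0 and 68.7 in null pools (log2 fold change -1.04 ± 0.17, limma adjusted p = 0.031). In heated pools the differences were -1.20 for probe 295002 and -0.85 for probe 197030, both with an adjusted p of 0.30 in limma.

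Mettl7a2, Acaa2 and Nosip had heterozygous minus wildtype differences of 0.18, 0.01 and -0.01 on the log2 scale. Mettl7a2 was at 0.999, 1.32, 1.28 and 1.45 in heterozygous and at 0.684, 0.686, 0.591 and 0.389 in null pools, a log2 fold change of -1.13 ± 0.18 (limma adjusted p = 0.030), with wildtype pools at 1.01 to 1.17. Its 0.389 in null pool D lies at the floor, where Mdm2 reads the same value in that pool. With the filter on low values, neither Mettl7a2 nor Lztfl1 probe 114065 kept its call. Acaa2 was at 16.7, 15.9, 13.7 and 14.2 in heterozygous and 10.8, 10.5, 10.6 and 9.52 in null pools (-0.54 ± 0.09, limma adjusted p = 0.031), with wildtype at 14.5 to 15.9. Nosip was at 2.04 to 2.93 in heterozygous and 1.47 to 1.63 in null pools (-0.67 ± 0.11, limma adjusted p = 0.031). In each of these genes the null control pools stood alone below both other genotypes. In the heated pools the null over heterozygous log2 fold change was -0.11 for Mettl7a2, -0.13 for Acaa2 and -0.04 for Nosip, and the difference between baths passed for none of the 3.

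Nlrx1 was higher in null pools, at 4.94, 5.42, 5.20 and 5.07 against 2.97, 2.49, 3.39 and 3.98 in heterozygous and 3.04 to 3.92 in wildtype pools (0.70 ± 0.13, limma adjusted p = 0.042). Heated null pools were at 2.60 to 3.81, overlapping heated heterozygous pools at 3.66 to 4.24. Bloc1s3 was lower in null control pools, at 1.5, 1.4, 1.53 and 1.14 against 2.27, 2.25, 1.83 and 2.10 (-0.61 ± 0.11, limma adjusted p = 0.042). In the heated pools it lay the other way, at 2.45, 2.96 and 2.74 in null against 1.79 to 1.98 in heterozygous pools, and the difference between baths was 1.15 ± 0.16 on the log2 scale (limma adjusted p = 0.0086, interaction contrast, which 4 of 23895 probes, 0.0167%, passed).

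Lztfl1 and Mcc passed through a dimmer probe only, and are named although other probes represent these genes in the counts of genes. Lztfl1 probe 114065 was at 0.801, 1.01, 0.536 and 1.06 in heterozygous and 1.49, 1.89, 1.70 and 1.49 in null pools (0.99 ± 0.18, limma adjusted p = 0.042), with wildtype pools at 0.431 to 0.774, while probes 224082 and 360106 gave -0.11 and -0.16. Mcc probe 251103 was at 1.57 to 1.99 in heterozygous and 1.01 to 1.29 in null pools (-0.61 ± 0.11, limma adjusted p = 0.042), while its brightest probe, 115020, gave 0.28 in the opposite direction. The probes of these genes disagreed, so no direction is given for either gene as a whole.

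The next genes by p did not pass. Alg5, a glucosyltransferase of protein glycosylation, was at 17.5 to 18.8 in heterozygous and 12.6 to 14.2 in null pools (-0.41 ± 0.08, limma adjusted p = 0.080). Sema4b, a semaphorin, gave -0.99 ± 0.21 and Nit2, an amidase, gave -0.41 ± 0.09, both with a limma adjusted p of 0.15. Alg5 and Nit2 had no overlap between groups, while Sema4b overlapped by 1 null pool at 0.873 against 0.860 in heterozygous pool C.

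Ccng1, the cyclin G1 gene and a direct p53 target that feeds back on Mdm2, had the clearest stepwise values among known targets but missed the threshold. It read 3.49, 4.32, 4.08 and 4.05 in wildtype, 2.95, 2.19, 2.95 and 2.74 in heterozygous and 1.58, 1.25, 1.49 and 1.41 in null control pools. The genotypes did not overlap, and pools C and D of the heterozygous group lay with A and B. The log2 fold change of null over heterozygous was -0.91 ± 0.19 with a 95% interval from -1.31 to -0.52 and a limma adjusted p of 0.15. An exact two-sided permutation test of the 4 against 4 values gave p = 0.0286, the smallest this design allows.

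Whether Ccng1 counts as called depended on the processing. Across 21 alternatives its sign was the same in 21 and it passed in 6, with adjusted p from 0.019 to 0.57 in limma. When empty cells were taken as random in the quantile step, the first form of normalization tried, its log2 fold change was -1.10 with an adjusted p of 0.028. Without heterozygous pool C the limma adjusted p was 0.041 (log2 fold change -0.87), without pools C and D together it was 0.019, and without pools A and B together it was 0.57 (-0.99). In the heated pools, Ccng1 was the only probe of 23895 (0.00418%) to pass, at 7.24, 6.26, 6.90 and 7.63 in heterozygous and 3.02, 1.24 and 1.39 in null pools (-2.01 ± 0.21, limma adjusted p = 4.3e-05). The difference between baths was -1.10 ± 0.28, which did not pass (limma adjusted p = 0.31).

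Cdkn1a, which encodes the cell cycle inhibitor p21, divided the heterozygous group. It read 5.41 and 5.25 in heterozygous pools A and B, within the wildtype range of 4.54 to 6.08, and 1.28 and 1.45 in pools C and D, within the null range of 1.07 to 1.47. The log2 fold change was -1.07 ± 0.48 (95% interval -2.07 to -0.07, limma adjusted p = 0.26), and the exact permutation p was 0.143. Without pools A and B the fitted change was -0.09, and without pools C and D it was -2.05 and passed (limma adjusted p = 0.0070). In heated pools Cdkn1a was again low in a single pool of each genotype, at 1.92 in heterozygous pool D against 4.96 to 5.49 in A to C, and at 1.23 in null pool C against 3.93 and 4.65 in A and B.

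**Figure D2:**
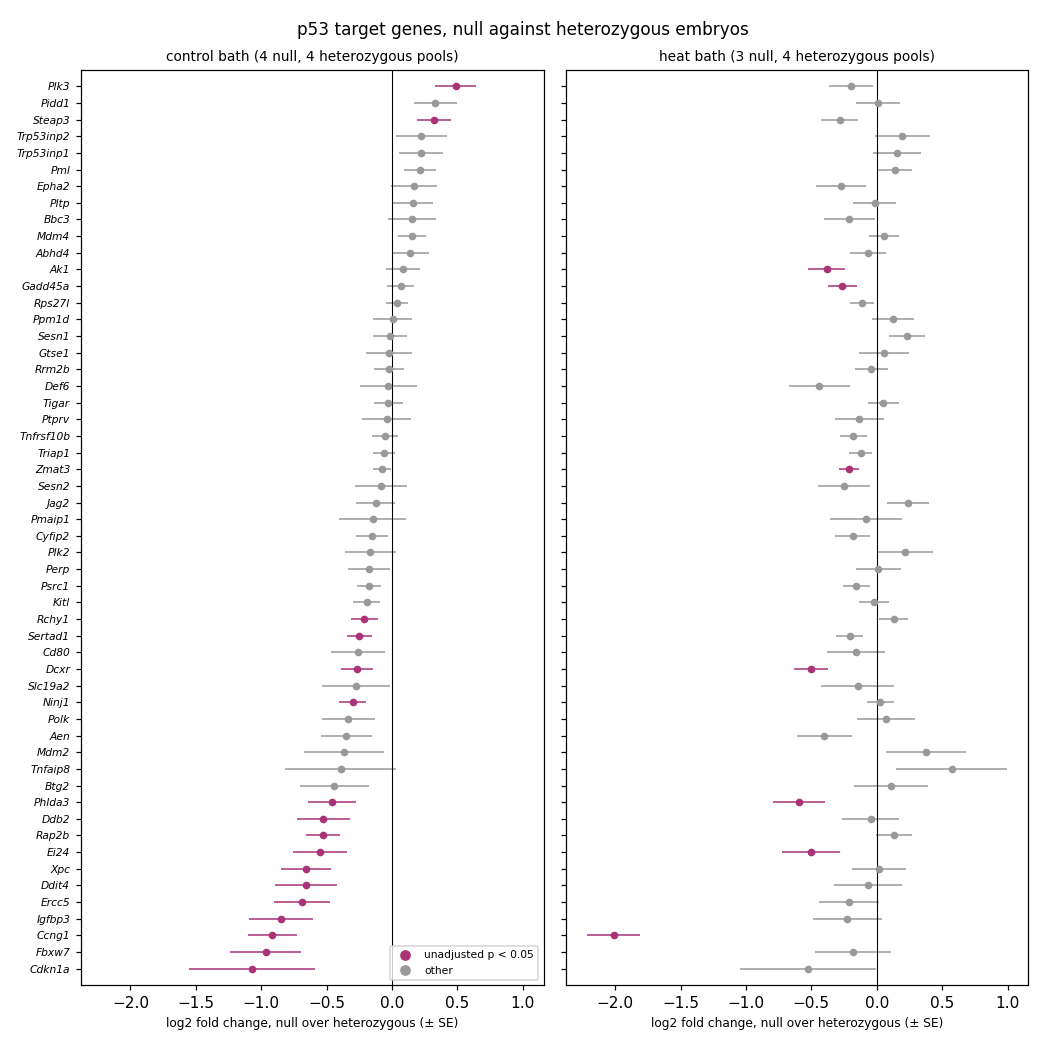
Log2 fold change of null over heterozygous pools (points, ± SE) for the 54 measured p53 target genes, control bath on the left and heat bath on the right, in the order of the control values. Purple marks an unadjusted p under 0.05; Cdkn1a has the lowest control value, and Ccng1 stands apart in the heat bath.

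Of 72 listed p53 targets 54 were measured, and none passed in the control bath. At an unadjusted p under 0.05, 15 were lower in null pools (27.8%, against 9.95% of all 13500 genes) and 2 were higher (3.70%, against 7.64%). The median log2 fold change was -0.15, against 0.01 over all genes, and 39 of the 54 were below 0. Without heterozygous pools A and B, 3 of the 54 targets were lower and none higher at that level. Over all 13500 genes 290 (2.15%) were lower and 183 (1.36%) higher. Without C and D 17 of the 54 were lower and 7 of the 54 higher. Over all 13500 genes 2281 (16.9%) were lower and 2693 (19.9%) higher. In the heated pools 7 of the same 54 genes were lower and none higher at an unadjusted p under 0.05, with a median of -0.10. Over all 13461 genes tested there 229 (1.7%) were lower and 394 (2.93%) higher.

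By role, the arrest and feedback genes were mixed. Ccng1 was lower as described, and Mdm2 was near the detection floor at 0.595 to 0.724 in heterozygous and 0.389 to 0.738 in null pools (-0.37 ± 0.30, limma adjusted p = 0.53), with 1 heterozygous cell empty. Mdm4, its partner, had a log2 fold change of 0.15. The stress-response gene Sesn2 had a log2 fold change of -0.08 with a 95% interval from -0.50 to 0.33. Rap2b, a small GTPase of the list, was at 2.71, 2.58, 2.12 and 2.61 in heterozygous and 1.80, 1.65, 1.67 and 1.80 in null pools (-0.53 ± 0.13, limma adjusted p = 0.15), with no overlap. Of the 54 targets, 5 had groups that did not overlap, 4 lower and 1 higher, against 7.43% of all probes.

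The fitted changes of the death genes lay on both sides of 0, and the intervals of Bbc3 and Pmaip1 included 0. Bbc3, which encodes Puma, was at 1.83 to 2.71 in heterozygous and 2.16 to 2.82 in null pools, a log2 fold change of 0.15 with a 95% interval from -0.22 to 0.53. Pmaip1, which encodes Noxa, was at 4.18 to 5.20 and 3.54 to 4.47 (-0.15, interval -0.68 to 0.38). Phlda3, an inhibitor of Akt signalling, was at 2.99, 2.98, 3.54 and 2.88 in heterozygous and 2.05, 2.03, 2.49 and 2.47 in null pools, with no overlap and a log2 fold change of -0.46 ± 0.18 that did not pass (limma adjusted p = 0.22). Its log2 fold change in the heated pools was -0.59. Of other death targets, Ei24 gave -0.55, Aen -0.35, Perp -0.17, Tnfrsf10b -0.05 and Pidd1 0.33 in the control bath, none past the threshold. They are outside the rule for named genes. Bax had no probe listed here.

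Among the repair targets, 3 that were lower in null pools at an unadjusted p under 0.05 are given here, and none of them passed. Xpc, which recognises damage in nucleotide excision repair, was at 3.06 and 2.86 in heterozygous pools A and B, at 1.69 and 2.0 in C and D, and at 1.17 to 2.07 in null pools (-0.66 ± 0.19, limma adjusted p = 0.16). Ercc5, an endonuclease of the same pathway, was at 2.08 and 2.11 in A and B, 1.55 and 1.74 in C and D and 0.672 to 1.79 in null pools (-0.69). Ddb2, a damage sensor, was at 1.74 and 1.81 in A and B, 1.23 and 1.17 in C and D and 0.744 to 1.37 in null pools (-0.53). Rrm2b, a ribonucleotide reductase subunit, gave -0.02 and Gadd45a 0.07. The heated pools showed 0.02 for Xpc, -0.21 for Ercc5 and -0.05 for Ddb2. These genes of repair and Mdm4 are outside the rule for named genes and were chosen for their roles with their values known.

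The heterozygous control pools fell into pairs. On the first principal component of the 12 control arrays (54.5% of the variance), heterozygous pools A and B lay at -28.9 and -35.3, beyond or beside the wildtype pools at -29.0 to -12.5. Pools C and D lay at 23.1 and 16.6, among the null pools at 10.9 to 36.9. Over 18702 probes with a value on every array, pools A and B correlated at 0.994 with each other, while C correlated at 0.970 with B and at 0.990 to 0.993 with the null pools. The highest value on the array as deposited was 209.3 and 181.5 in A and B, 327.6 and 328.6 in C and D, and 299.9 to 329.0 in null pools. The number of empty cells was 8508 and 7576 in A and B, 11666 and 11532 in C and D, and 10965 to 11178 in null pools. Wildtype pools ran from 192.8 to 324.2 and from 8874 to 11610 on these measures, and wildtype pool A, lowest of its group on both, was also the lowest of its group on the first component. The part of these measures in the results was not tested.

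**Figure D3:**
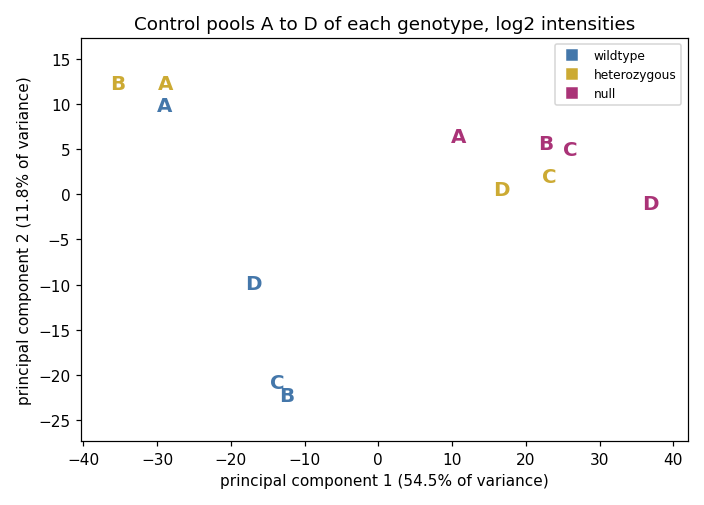
The 12 control pools on the first and second principal components of log2 intensities, each letter 1 pool, coloured by genotype. Heterozygous pools A and B lie on the left at -28.9 and -35.3, and C and D on the right at 23.1 and 16.6, among the null pools.

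The spread within the heterozygous group was wider than in the other control groups. Of 18702 probes, 5.61% ranged over more than 1 log2 unit among heterozygous pools, against 0.738% among wildtype and 2.99% among null pools. A gap of more than 1 log2 unit between A and B on the one side and C and D on the other held for 263 probes, 258 of them higher in A and B. These probes were picked by that gap, so their control values are a description. In 252 of the 258, every null pool lay below both A and B. In heated pools, which played no part in the choice, heterozygous pool D was the lowest of 4 in 253 and null pool C was the lowest of 3 in 255 of the 258. The same share over all 18702 probes was not counted, so how common this order is elsewhere on the array is not known.

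Ttc9c, Ezh1 and Plxna1 were 3 of the 5 probes higher in C and D. Ttc9c, a tetratricopeptide repeat gene, was at 9.91 and 9.35 in A and B, 29.6 and 29.9 in C and D, and 31.5, 35.9, 31.7 and 32.0 in null pools, against 9.02 to 10.3 in wildtype. All heated pools, of either genotype, were at 9.49 to 10.8. Ezh1, a histone methyltransferase of the Polycomb system, was at 2.22 and 2.10 in A and B, 7.79 and 8.17 in C and D and 6.79 to 7.95 in null pools. Plxna1, a semaphorin receptor, was at 0.456 and 0.593 against 2.15 and 1.90, with null pools at 1.86 to 2.25. The log2 fold changes of null over heterozygous were 0.95, 0.87 and 1.0, none past the threshold (limma adjusted p = 0.15, 0.20 and 0.18). The heterozygous values were split between pools. These probes belong to the set picked by that gap, so the split is a description. Whether the values are graded with the number of p53 copies was not tested.

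**Figure D4:**
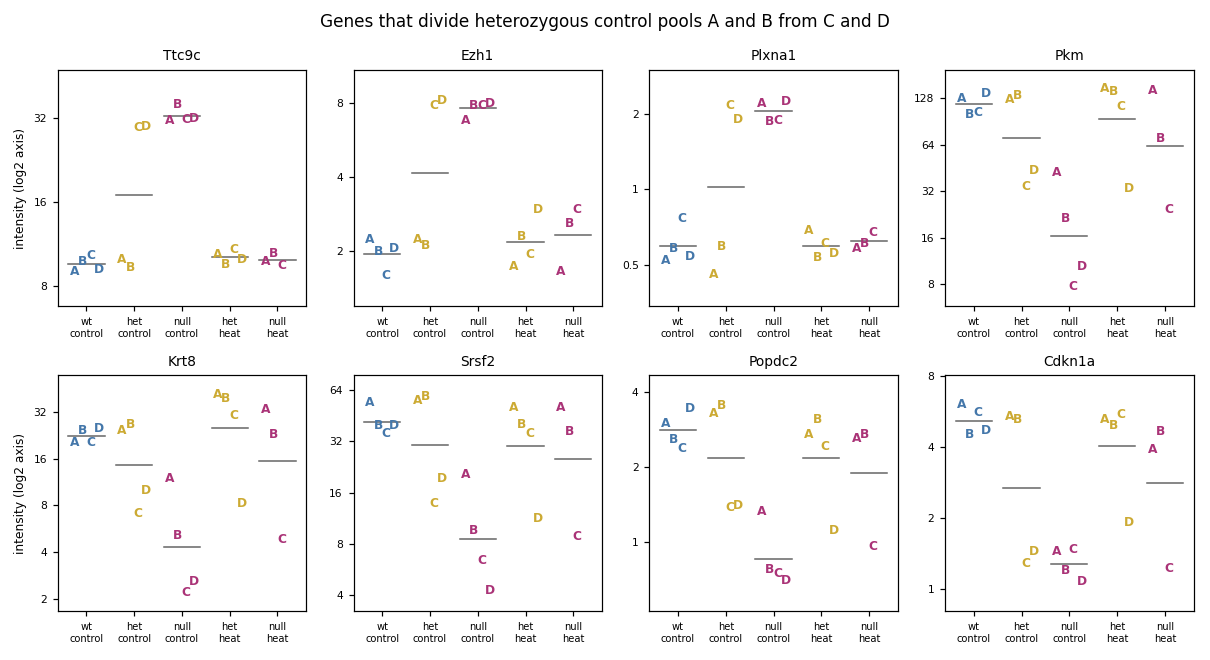
Intensity (log2 axis, normalised, arbitrary units) by pool for 8 genes that divide the heterozygous control pools, each letter 1 pool, grey lines geometric means. Pools C and D lie with or near the null control pools; in the heat bath Ttc9c and Plxna1 are low in every pool, while Pkm, Krt8, Srsf2, Popdc2 and Cdkn1a are low in heterozygous pool D and null pool C.

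Pkm, Krt8, Srsf2 and Popdc2 showed the same division in the other direction. Pkm, the pyruvate kinase of glycolysis, was at 125 and 134 in A and B, 34.5 and 43.5 in C and D, and 42.4, 21.4, 7.71 and 10.5 in null pools (-2.10 ± 0.55, limma adjusted p = 0.15). In the heated pools it was at 33.3 in heterozygous D against 113 to 147 in A to C, and at 24.5 in null C against 145 and 70.6. Krt8, a keratin of simple epithelia, was at 24.1, 26.6, 7.12 and 9.93 in heterozygous and 2.21 to 12 in null pools (-1.75). Srsf2, a splicing factor, was at 55.1, 58.7, 13.8 and 19.2 and at 4.29 to 20.5 (-1.83), while its dimmer probe 322012 gave -0.20. Popdc2, a membrane protein of heart muscle, was at 3.27, 3.52, 1.36 and 1.40 and at 0.697 to 1.32 (-1.35). Low values thus came in heterozygous C and D, all null control pools and 1 heated pool of each genotype.

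Left out in turn, the pairs gave opposite pictures. The pairs were picked on these same control arrays, C and D for lying among the null pools. The direction of each change in the count was therefore set by that choice and is a description, not a test. Without heterozygous pools A and B no probe passed, and 820 were at an unadjusted p under 0.05. Without C and D 5522 probes passed, 3169 higher and 2353 lower, and all 10 probes above were among them. For Dennd5b probe 51041, probe 295002 and Ccng1, however, heterozygous pools C and D lay between the wildtype and null ranges, like A or B. The labels give no scan date or slide, so pairs of pools and any batch cannot be told apart.

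**Figure D5:**
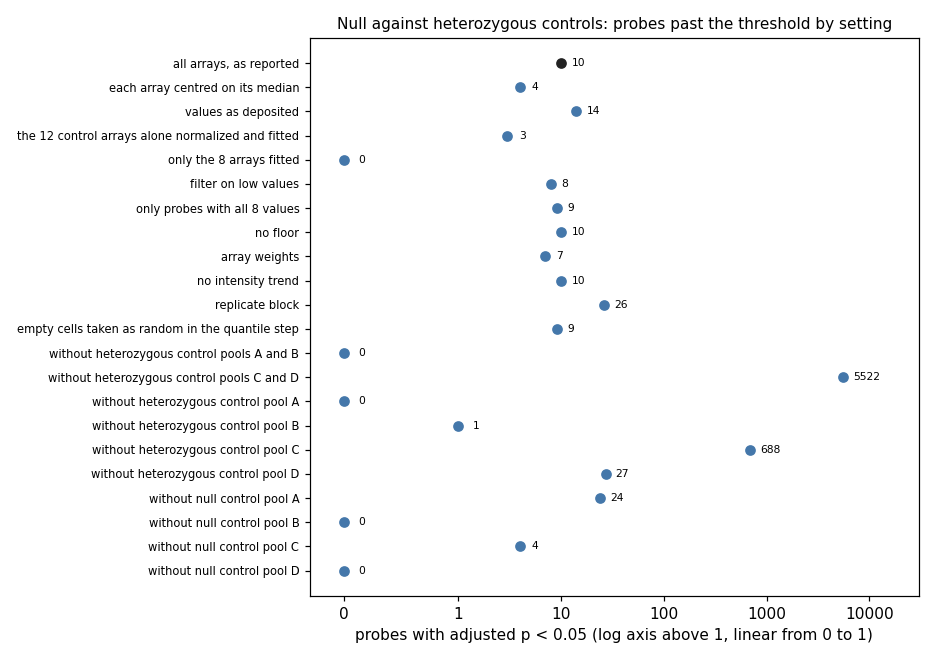
Number of probes past an adjusted p of 0.05 in null against heterozygous control pools, by processing setting (horizontal axis logarithmic above 1 and linear below). The count is 10 as reported, 0 without heterozygous pools A and B and 5522 without C and D.

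Among 31 gene lists fitted to the embryo, the p53 system and stress, and a further list of genes near Trp53, no member passed in the control bath, so each list is described by counts at an unadjusted p under 0.05 beside 9.95% lower and 7.64% higher over all genes. A single signed value after a gene name is its log2 fold change of null over heterozygous control pools. Such a value does not show whether the heterozygous pools were divided. Cbx3, Aldoc, Nnat and the brightest Meg3 probe are examples that were divided, while Ccng2 was not. In A and B these 4 were at 41.4 and 53.4, 4.62 and 5.08, 32.2 and 48.2, and 49.1 and 49.3. In C and D they were at 25.9 and 27.8, 2.10 and 2.70, 14.6 and 21.2, and 22.3 and 29.2. Other genes given below only as such a value also had both A and B above C and D. Hspb7, Cd34, Gsr, Enah and Klf1 are among them. Hspb7 was at 1.63 and 2.20 against 0.917 and 1.22, and Gsr at 6.87 and 7.95 against 4.81 and 5.94. In the cell cycle lists, members were lower and none higher: 10 of 53 for replication and 9 of 50 for mitosis. Prim1, the primase subunit, was at 16.9 to 20.9 in heterozygous and 11.7 to 15.5 in null pools, and Mad2l1, of the spindle checkpoint, at 43.7 to 51.8 and 35.1 to 41.0, neither overlapping. Ccne2, cyclin E2, gave -0.41 and Bub1b, a checkpoint kinase, gave -1.24 with its heterozygous values divided (13.9 and 12.8 against 6.20 and 7.57). Without heterozygous pools A and B, 2 of 53 replication genes and 1 of 50 mitosis genes were lower at that level, against 2.15% of all genes.

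In DNA damage repair 11 of 52 were lower and 2 higher, and 5 of the 52 had no overlap, beside 7.43% of all probes; Rad51c, a recombination factor, was at 1.32 to 2.06 and 0.921 to 1.3, and Mgmt, which removes alkyl groups from DNA, at 1.57 to 2.02 and 1.26 to 1.39. Among cell cycle inhibitors 4 of 17 were lower and 1 higher, with Ccng2, a relative of Ccng1, at 1.41, 1.87, 1.69 and 1.69 against 1.39, 1.04, 0.967 and 0.814 (-0.68 ± 0.16). Among p53 regulators 4 of 25 were lower, led by Dyrk2, a kinase of p53 (-0.42), and Atr, a damage kinase (-0.62). Atr was near the floor, at 0.383 in null pool B. Among chromatin regulators 6 of 53 were lower and 3 higher, with the heterochromatin proteins Cbx3 at -0.88 and Cbx1 at -0.41. Histone genes gave 3 of 13 lower, H3c4 at -0.69 and H2ac8 at -0.93, the latter with divided heterozygous pools (2.60 and 3.77 against 1.18 and 1.20).

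Of 34 apoptosis genes 5 were higher and 2 lower at an unadjusted p under 0.05, with 17 on each side of 0 and a median of -0.01. Bak1, a pore-forming death effector, was at 2.78 to 3.28 in heterozygous and 2.12 to 2.67 in null pools (-0.38), and Bcl2l14 gave 0.33. Heat shock genes gave 9 of 50 lower and 1 higher, among them Hspa14 (-0.48) and the cold-inducible Cirbp (-0.58), which was at 31.1 to 43.9 against 19.6 to 31.8. Of the inducible chaperones, Hspb1 gave 0.11 with a 95% interval from -0.09 to 0.32, and Hspa1a, near the floor in controls, gave 0.26 with an interval from -2.16 to 2.68. Heated null pool B alone read 120 for Hspa1a, against 1.49 to 2.10 in the other heated null and heterozygous pools.

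Metabolic lists were lower at more members than higher. The counts lower were 6 of 21 for hypoxia, 5 of 21 for cholesterol synthesis, 6 of 32 for oxidative and metal stress and 3 of 23 for glycolysis, with none higher in these 4 lists. Sqle, squalene epoxidase, gave -1.0, Srebf1, the lipid regulator, -0.90, Gsr, glutathione reductase, -1.06, Gss, glutathione synthetase, -0.53, and Vhl, which targets hypoxia factors for destruction, -0.52. Tfrc, the transferrin receptor, was at 3.93 to 4.46 against 2.56 to 3.73 with no overlap, and Aldoc, an aldolase, gave -0.74. Without pools A and B these lists held 2 of 21, 1 of 21, 2 of 32 and 0 of 23 lower members, against 2.15% of all genes. Ribosomal protein genes gave 1 of 24 lower, with Rps20 at -0.36 and Rpl7a at -0.16, and splicing genes 6 of 46 lower and 4 higher, with U2af1, the splice acceptor factor, at 47.0 to 69.5 against 36.0 to 43.6 (-0.57, limma adjusted p = 0.15).

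The lists of embryonic tissues were mixed. Neural tube and brain patterning had 30 of 47 members above 0, with a median of 0.12, 3 members higher and 1 lower at an unadjusted p under 0.05. Rax, of the eye field, was at 2.96, 3.37, 5.21 and 5.06 in heterozygous and 5.94 to 6.97 in null pools (0.66 ± 0.18), and Fezf1, of the forebrain, at 6.13 to 8.09 and 8.91 to 9.93 (0.41 ± 0.14), both without overlap and neither past the threshold. Neural tube closure genes gave 5 of 38 higher and 4 lower, with the actin-linking genes Vcl at -1.16 and Enah at -0.65, while a dimmer Enah probe gave 0.15. Neural crest genes gave 3 of 31 in each direction, with Prrx1 at -0.37 and Cdh11 at -0.34, and neuronal genes 4 of 24 lower and 2 higher, with Isl1 at -0.39 and Elavl4 at -0.46.

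Mesodermal and vascular lists were lower at some members. Endothelial genes gave 9 of 37 lower and 1 higher, with Nrp1, a VEGF co-receptor, at 10.2, 11.4, 6.86 and 7.23 against 3.11 to 7.21 (-0.92) and Cd34 at -0.97. Heart muscle gave 6 of 40 lower and none higher, with 30 of 40 below 0, Popdc2 and Hspb7 (-0.75) leading. Primitive red cell genes gave 5 of 27 lower, with the erythroid factor Klf1 at -0.78, near the floor at 0.380 in null pool C. Somite genes gave 4 of 34 lower, with Cyp26a1, which clears retinoic acid, at 6.23 to 7.75 against 4.92 to 5.75, and Rspo3, a Wnt agonist, at 4.73 to 7.35 against 3.58 to 4.70. Hox genes gave 4 of 29 lower and 2 higher, with Hoxa9 at -0.64 and Hoxb13 at 0.41. Nrp1, Cd34, Popdc2 and Hspb7 all had heterozygous pools A and B above C and D. A recount without pools A and B is not given for these lists, nor for the repair, histone and heat shock lists. In pools of whole embryos, fewer cells of a type and less RNA per cell cannot be told apart.

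The remaining lists were small in effect. Imprinted genes gave 3 of 23 lower and 1 higher, with Nnat at -0.72 and the brightest Meg3 probe at -0.63; the other 3 Meg3 probes gave -0.22 to 0.34. Epithelial and gut genes gave 5 of 30 lower and 4 higher, with Cdh1 at -0.54 and St14 at 0.52. Yolk sac genes gave 2 of 38 in each direction (Ctsl at -0.46), trophoblast and decidua genes 3 of 24 lower (Krt19 at -0.24), and immune genes 1 of 10 higher (Cd79a at 0.38, Spi1 at 0.17). Genes within 10 Mb of Trp53 on the chromosome, which can travel with the null allele in crosses, gave 40 of 273 lower (14.7%) and 22 higher (8.06%), with Aipl1 at 0.33 and Poldip2 at -0.34.

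Markers of embryonic and of other cells were checked by the number of pools with a value, which is limited by the empty cells at both ends of the scale. Of the markers of other cells, Tpbpa of trophoblast and C1qa of macrophages had no value in any of the 8 pools, and Ptprc, Lyz2 and Prl8a2 had values in 1, 1 and 2 of them. Heart Actc1 (96.4 to 122), neural Pax6 (15.6 to 21.6), somite Meox1 (11.1 to 13.8) and endothelial Kdr (19.8 to 25.1) were read in all 8, as were Afp (12.2 to 24.7), Ttr and Apoa1 of the yolk sac. Embryonic markers were also empty in part: Shh, Cdh5 and Hba-x had values in 2 of the 8 pools, Myl7 in 6 and Uncx in 7. The values thus show embryonic tissues but do not separate absent cells from filtered spots. Cldn5 of endothelium was less even, at 2.68 to 10.3 (-0.92). So were neural Sox2 at 1.64 to 4.69 (-0.57), erythroid Klf1 at 0.380 to 1.27 (-0.78) and neural crest Foxd3 at 6.21 to 10.35 (0.34). Markers of the same cells differed: Pax6 gave 0.28, Sox1 -0.09, Pax3 -0.05, Gata1 0.08, Sox10 0.18 and Kdr -0.02. None of these markers passed. Sex-linked transcripts differed between pools of the same genotype. Xist, the X inactivation transcript, was at 14.8 in heterozygous pool C against 0.585 to 1.51 in the other heterozygous pools and 0.826 to 1.32 in null pools. Usp9y, on the Y chromosome, was at 1.96 to 2.10 against 1.42 to 1.90 (-0.29), and Eif2s3y, on the Y and chosen after its values were seen, ran from 2.92 to 10.8 in heterozygous and 2.39 to 7.52 in null pools. The part of sex in the results was not tested.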

How the data were processed

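Labelled cRNA of embryo pools was read on CodeLink 1-colour arrays, per the labels' protocols. The deposited values are linear intensities scaled by the authors to a median near 1 on each array. No source used here states the scanner, the background step or a spot filter. Control arrays hold 7576 to 11666 empty cells each, mostly of the dimmest and brightest probes, so a transcript at either end has no value. Heat arrays hold none, and carry a code for missing.

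Empty and coded cells counted as missing. Positive values under the 5th percentile of their array were raised to it, and log2 was taken. Arrays were quantile normalized, with the mapping computed on the 18702 probes that have a value on all 23 arrays. This form of the quantile step was specified after values and results had been seen. Results under 5 normalizations (both quantile forms, median centring, deposited values, and the 12 control arrays alone) and under the other alternatives were known when it was chosen. The first form took empty cells as missing at random and raised the heat arrays against the controls for most probes. Under it 9 probes passed and Ccng1 was one of them, whereas under the form used 10 passed and Ccng1 was not. The members and gene lists were likewise chosen with earlier results of these data known, and leaving out heterozygous pools in pairs was added after seeing the data.

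limma 3.58.1 in R 4.3.3 fitted 6 group means over 23 arrays (lmFit, eBayes with an intensity trend), with Benjamini-Hochberg adjustment over all probes tested and a threshold of 0.05. Each probe had a single estimate of spread, shared by all 6 groups. Intervals and p-values of the control comparison thus also hold scatter among heated pools, which was wide for Hspa1a, Cdkn1a, Pmaip1 and Phlda3. The script was tested on simulated data. A gene was represented by its brightest tested probe over the 8 arrays. Genes were named by rule: those of smallest p, the leading members of each list, and a set of p53, heat shock and sex genes; others named are said to be outside it. Gene names are those of the platform annotation in GEO, brought up to date with RefSeq gene IDs (21487 of 21615 probes with 1 symbol matched; 681 carry several and 13931 none). Levels printed are normalized intensities, on an arbitrary scale. The number of arrays limits the precision. The labels call the pools biological replicates and do not say whether litters were shared.

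Replicate letters were checked for pairing. Deviations of same-letter null and heterozygous pools correlated at 0.31, -0.01, 0.11 and 0.29. Heterozygous pools A and D matched the null pool of their own letter best, while B and C matched null pools A and D. Such values cannot decide whether the letters pair the samples, because the deviations also hold the division of the heterozygous pools. The main fit used no pairing. Alternatives tried were normalization, floor, filters, array weights, trend, arrays fitted, the replicate letter as a block, and each pool left out.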

Additional observations from a re-analysis of the deposited data

Results flagged for a closer look

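In 4 genes the null over heterozygous difference was not the same in both baths, by the interaction contrast in limma. The heat difference minus the control difference on the log2 scale was 1.15 for Bloc1s3 (adjusted p = 0.0086), 1.37 for Dusp28 (adjusted p = 0.021), 1.14 for Med18 (adjusted p = 0.022) and 1.06 for Tasor (adjusted p = 0.027), out of 4 of 23895 probes (0.0167%). Dusp28, Med18 and Tasor are named because they passed here. In all 4 the fitted null mean was lower in the control bath and higher in the heat bath: Med18 was at 4.49 to 6.62 in null and 5.8 to 9.41 in heterozygous control pools, and at 10.0 to 10.9 in null and 6.67 to 7.75 in heterozygous heated pools. No probe passed without heterozygous control pools A and B, or without heated null pool B.

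A single pool stood apart from the rest of its group of 4 in 3 flagged cases, all in control pools. They were Hspa1a at 0.496 in heterozygous pool C, Ttc9c at 35.9 in null pool B, and Ezh1 at 6.79 in null pool A. The gap is judged against the range of the group, so it can be small in size. The list is not complete: heated heterozygous pool D was at 1.92 for Cdkn1a, against 4.96 to 5.49 in A to C. Chance gives such a gap in about 1 of 20 groups, and the number of groups screened is not given.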

How the results depend on the processing

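Against 10 probes in null against heterozygous controls, 4 passed with each array centred on its median, 3 with the 12 control arrays alone and 0 with only the 8 arrays fitted in limma. The count was 26 with the replicate letter as a block, all 10 among them. Whether the letters pair the samples is not known, and not every pool correlated best with its own letter. Leaving out 1 pool gave 0 to 688, without heterozygous pools A and B 0, and without C and D 5522. The other settings gave 7 to 14. In heated pools the count of 1 became 1 to 6 with 1 pool left out. The 4 probes of the bath difference became 0 with empty cells taken as random, 0 without heterozygous control pools A and B, 3432 without C and D, and 0 to 17 with 1 pool left out.

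With empty cells taken as random in the quantile step, the form tried first, the median log2 fold change over all probes was -0.10 against 0.03, so changes under it are relative to that shift. Under it 6 of the 10 probes kept their call, and Ccng1 passed (adjusted p = 0.028 in limma) where it did not otherwise (0.15). The form used was chosen with both results known. Among 86 probes examined singly, no call changed sign, 89 times a call was lost and 110 times a further probe passed. The 89 losses all fell on the 10 probes that had passed. Some probes without a call did change sign. Ezh1 kept its sign in 20 of 21 alternatives and Sesn2 in 19 of 20. Hspb1, Spi1, Xist and the brighter Dennd5b probe also changed sign in some setting. The causes were not tested.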
